A study of Mus musculus with 8 samples.

Results

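The 34 genes described here are interferon-stimulated genes and genes of antigen presentation by major histocompatibility complex (MHC) class I. They were chosen by name, with no threshold on their values but with earlier results of these data known, from a count table of 46078 rows, in which each of the 34 has 1 row. Of the 34, 29 passed the filter on low counts and were tested among 15996 genes. They fall into 5 roles, which are interferon signalling (4 genes), antiviral effectors (14), nucleic acid sensors and TRIM ligases (5), guanylate binding and cell death proteins (5), and antigen presentation (6).

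Poly(A) RNA of the mouse hippocampus was sequenced in 4 libraries from T29-1 Cre mice and 4 libraries from WT mice, all aged 9 weeks and of the C57BL/6J strain. T29-1 Cre mice are Cre+/- carriers of the transgene Tg(Camk2a-cre)T29-1Stl, in which Cre recombinase is driven by the Camk2a promoter. Camk2a encodes a kinase that is abundant in excitatory neurons of the forebrain. No floxed allele and no treatment is named in the labels of either genotype, so the libraries show resting tissue, and the comparison asks what the Cre transgene goes along with. Cre is driven in excitatory neurons, while the libraries hold RNA of all cells of the hippocampus, and in such bulk tissue fewer cells of a type and less RNA per cell cannot be told apart. Whether the libraries of 1 genotype are from different animals is not said in the labels, and the p-values given here therefore cover only the spread between these libraries, which may be technical.

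Type I interferons bind a receptor on nearly all cells and signal through the kinases JAK1 and TYK2 to a transcription factor complex that includes STAT2 and IRF9 and binds the interferon-stimulated response element (ISRE) in the promoters of target genes. Type II interferon acts through another element, the gamma-activated site (GAS), and is the main inducer of the immunoproteasome and of MHC class I presentation. In the healthy brain these genes are kept low, microglia and vascular cells respond readily to interferon, and MHC class I proteins of neurons have been linked to synaptic pruning.

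Promoter windows of the members are shown because interferon acts on its target genes through short elements in them. RefSeq windows of 250 bases before the start were at hand for 26 of the 34 members on the build GRCm38.p6. The ISRE core GAAANNGAAA, searched on both strands with overlapping matches counted, stood in the window of 12 of these 26 members (46.2%), against 3.46% of 27025 genes with a window. The 12 were B2m, Bst2, Gbp2, Gbp3, Ifit1, Ifit3, Ifit3b, Isg15, Oas1a, Rsad2, Stat2 and Trim30a. The GAS letters TTCNNNGAA stood in the windows of 4 members (15.4%), which were Bst2, Ifit2, Oas1a and Psmb8, against 8.13% of genes. A match describes the letters in this window and is not shown to be a bound site. In the 5 windows printed here, 5′ to 3′ on the strand of the gene, capitals mark the matches to the ISRE core, GAAANNGAAA or to its reverse complement.
Isg15, chr4:156200819-156201068, minus strand: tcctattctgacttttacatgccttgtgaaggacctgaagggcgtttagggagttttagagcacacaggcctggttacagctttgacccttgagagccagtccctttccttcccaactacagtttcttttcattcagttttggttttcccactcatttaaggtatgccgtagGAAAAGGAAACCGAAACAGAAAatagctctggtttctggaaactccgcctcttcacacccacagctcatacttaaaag
Ifit3, chr19:34583279-34583528, plus strand: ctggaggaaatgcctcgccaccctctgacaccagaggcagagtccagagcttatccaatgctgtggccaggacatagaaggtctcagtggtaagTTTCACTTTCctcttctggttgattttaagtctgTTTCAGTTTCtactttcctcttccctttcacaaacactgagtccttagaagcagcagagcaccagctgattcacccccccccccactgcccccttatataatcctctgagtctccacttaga
Ifit3b, chr19:34607707-34607956, plus strand: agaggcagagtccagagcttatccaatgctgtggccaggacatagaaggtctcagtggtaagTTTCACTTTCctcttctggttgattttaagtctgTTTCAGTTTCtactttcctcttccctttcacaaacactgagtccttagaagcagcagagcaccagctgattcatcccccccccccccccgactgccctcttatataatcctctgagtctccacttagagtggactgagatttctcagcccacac
Rsad2, chr12:26456453-26456702, minus strand: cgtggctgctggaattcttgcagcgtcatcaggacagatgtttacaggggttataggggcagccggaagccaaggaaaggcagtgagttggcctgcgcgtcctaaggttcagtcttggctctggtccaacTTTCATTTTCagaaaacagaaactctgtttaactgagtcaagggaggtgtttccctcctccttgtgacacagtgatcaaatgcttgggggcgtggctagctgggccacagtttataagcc
B2m, chr2:122147437-122147685, plus strand: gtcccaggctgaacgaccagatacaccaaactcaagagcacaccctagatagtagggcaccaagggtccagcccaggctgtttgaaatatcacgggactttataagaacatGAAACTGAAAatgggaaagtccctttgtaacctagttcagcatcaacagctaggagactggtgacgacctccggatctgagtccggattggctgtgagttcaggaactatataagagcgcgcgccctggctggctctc
Isg15, an antiviral ubiquitin-like protein, had 3 overlapping matches, the nearest 66 bases before its start. Ifit3 and Ifit3b, neighbouring copies of an RNA-binding antiviral gene, had a pair of matches each and shared an unbroken run of 169 bases. Rsad2, the antiviral enzyme viperin, had 1 match 120 bases before its start, and B2m, the light chain of MHC class I, had 1 match at 139 bases. These 5 genes differed widely in resting level and in their variation between libraries, as described next.

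Several members lie near each other in the genome (GRCm38, GENCODE genes). Ifit2, Ifit3, Ifit3b and Ifit1 lie within chr19:34550694-34650009 on the plus strand, and Gbp3 and Gbp2 within chr3:142560026-142638008 on the plus strand. Psmb9, Tap1 and Psmb8 follow each other within chr17:34181987-34201454 in the MHC, between H2-K1 (chr17:33996017-34000347, minus strand) and H2-D1 (chr17:35262730-35267499, plus strand). Ifi27 and Ifi27l2a lie within chr12:103434211-103443680 on opposite strands, and Oas2 and Oas1a within chr5:120730333-120907521 on the minus strand. The counts are of reads per gene, so they do not tell exons or isoforms apart.

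The libraries held 23358289 to 27543742 counts in T29-1 Cre and 23694841 to 30882631 counts in WT. Library WT 4 stood apart in a principal component analysis, at -33.4 on component 1 (26.1% of the variance), where the other libraries lay between -0.687 and 8.74. All 6 markers of excitatory neurons were tested, with summed levels of 8104 to 8885 CPM in T29-1 Cre and 8509 to 8937 CPM in WT. The marker lists are of cell types, so they do not show which region of the brain was sampled. The 8 lymphocyte markers together had 88 counts over all libraries, and Cd3g had none.

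The members were low in the resting hippocampus. Together they held 0.0193% of all counts, and 5 genes, B2m, H2-D1, Stat2, Ifi27 and H2-K1, held 66.9% of that. On the scale of CPM (counts scaled to library size) per kilobase of exon, which allows levels of different genes to be compared, the median tested member was at 0.64, against 4.49 for the 15190 tested genes with a known length. A level of 0.64 is at percentile 16.7 of those genes. Of the 29 tested members, 24 lay below the median of tested genes and 19 in the lowest 25% of them. Exon length was taken as the union of all annotated exons, so genes with long minor isoforms come out lower on this scale.

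B2m was the highest member, at 41.5 CPM per kb (percentile 93.1), with libraries between 39.2 and 44.3. Ifi27, a mitochondrial and nuclear envelope protein induced by type I interferon, followed at 16.7 (15.4 to 19.3 CPM per kb), and the class I heavy chain H2-D1 at 10.2 (8.27 to 12.2 CPM per kb). The ranges of these 3 genes over the 8 libraries did not overlap, nor did that of H2-D1 with the next, the class I heavy chain H2-K1 at 6.13 (5.18 to 7.13 CPM per kb). From there on, neighbours in the order overlapped in most cases. Ifitm3, a membrane protein that blocks viral fusion, was at 5.85 CPM per kb and Stat2, the signal transducer, at 4.16, close to the median of tested genes. Bst2 (tetherin, which holds budding virions at the cell surface), Ifit3, Ifit2 and Irf9 (the DNA-binding partner of STAT2) lay between 1.68 and 2.03 CPM per kb. The next 20 members in the order, from Ifit3b at 1.1 to Mx2 at 0.127 CPM per kb, were all below these 10. At the low end, the antiviral genes Oas1a, Oas2 and Mx1 and the Z-nucleic acid sensor Zbp1 were at 0.0914, 0.0483, 0.019 and 0.0121 CPM per kb.

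**Figure D1:**
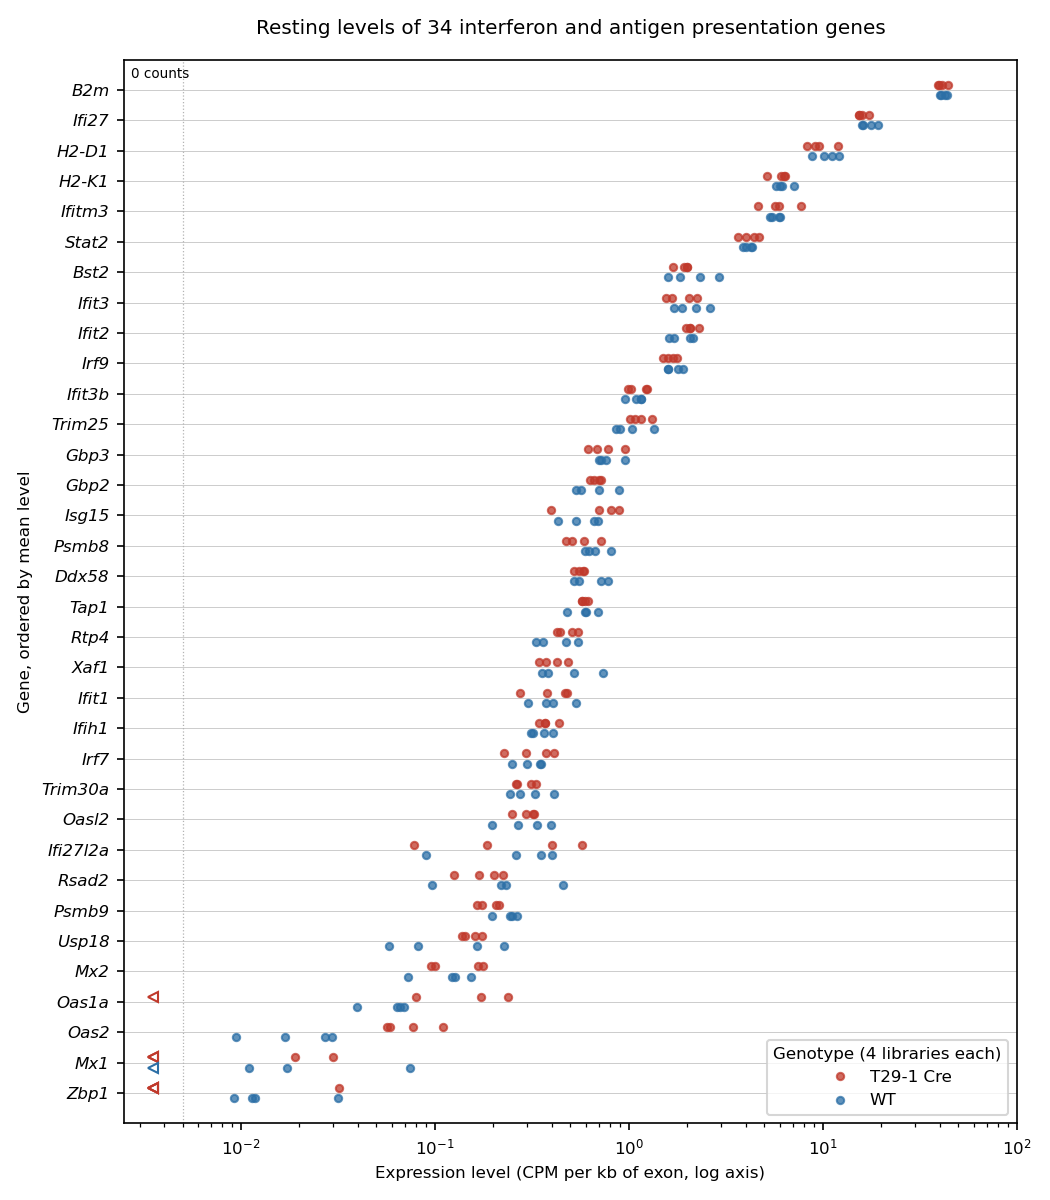
Level of each of the 34 genes in every library, in CPM per kb of exon on a log axis, ordered by the mean over the 8 libraries, with T29-1 Cre libraries in red above WT libraries in blue and open triangles for libraries at 0 counts. The genes run from B2m at 41.5 to Zbp1 at 0.0121 CPM per kb, and the libraries of the genotypes lie among each other for every gene but Oas2.

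The interferons themselves had close to no counts. Of 21 genes of interferon ligands in the table, 18 had 0 counts in all 8 libraries and the other 3, Ifnb1, Ifna2 and Ifnz, had 1 count each. A count of 0 allows up to 3 counts in a library, which is 0.0979 to 0.129 CPM here, and these floors cover counting error only. They do not cover reads that match more than 1 of these genes, whose treatment in the counting was not given. Both chains of the type I receptor were well above the floor, while Ifnlr1, a chain of the type III receptor, had 22 counts over all libraries. Ifnar1, a chain of the type I receptor, averaged 42.4 ± 2.74 CPM in T29-1 Cre and 40.8 ± 2.64 CPM in WT (SD, n = 4 each), and Ifnar2, the other chain, averaged 10.9 ± 0.612 CPM in T29-1 Cre and 11.4 ± 0.339 CPM in WT (SD, n = 4 each).

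No member differed between the genotypes past the threshold. By the quasi-likelihood test of edgeR, 0 of 29 members had an adjusted p under 0.05, and the same test called 1 of 15996 genes (0.00625%). At an unadjusted p under 0.05 there were also 0 members, beside 388 genes (2.43%), and DESeq2 and limma-voom gave 0 members at both levels. The T29-1 Cre libraries and the WT libraries overlapped for all 29 tested members, while 289 of all tested genes (1.81%) had no such overlap. The log2 fold change of T29-1 Cre over WT had a median of -0.01 over the members and -0.00 over all tested genes, with 12 members higher and 17 lower. It ranged from -0.49 (Rsad2) to 0.30 (Isg15), and the edgeR adjusted p was 0.998 for each of the 29.

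The precision of these values differed between members. For 20 of the 29 members the 95% confidence interval of the fold change lay within 1.5-fold in either direction, against 82.7% of all tested genes. For 27 of 29 it lay within 2-fold (95.7% of all tested genes). The 2 exceptions were Usp18, the protease that removes ISG15 and dampens the type I receptor, and Rsad2. A T29-1 Cre effect of 2-fold or more on the other 27 is therefore outside their intervals. Smaller effects that lie inside an interval are left undecided with 4 libraries per genotype. Counts alone do not set the width. Rsad2 had 198 counts in all, more than Isg15 with 102, whose interval lay within 2-fold. The coefficient of variation of Rsad2 over the 8 libraries was 50.8%, against 20.1% from counting alone.

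**Figure D2:**
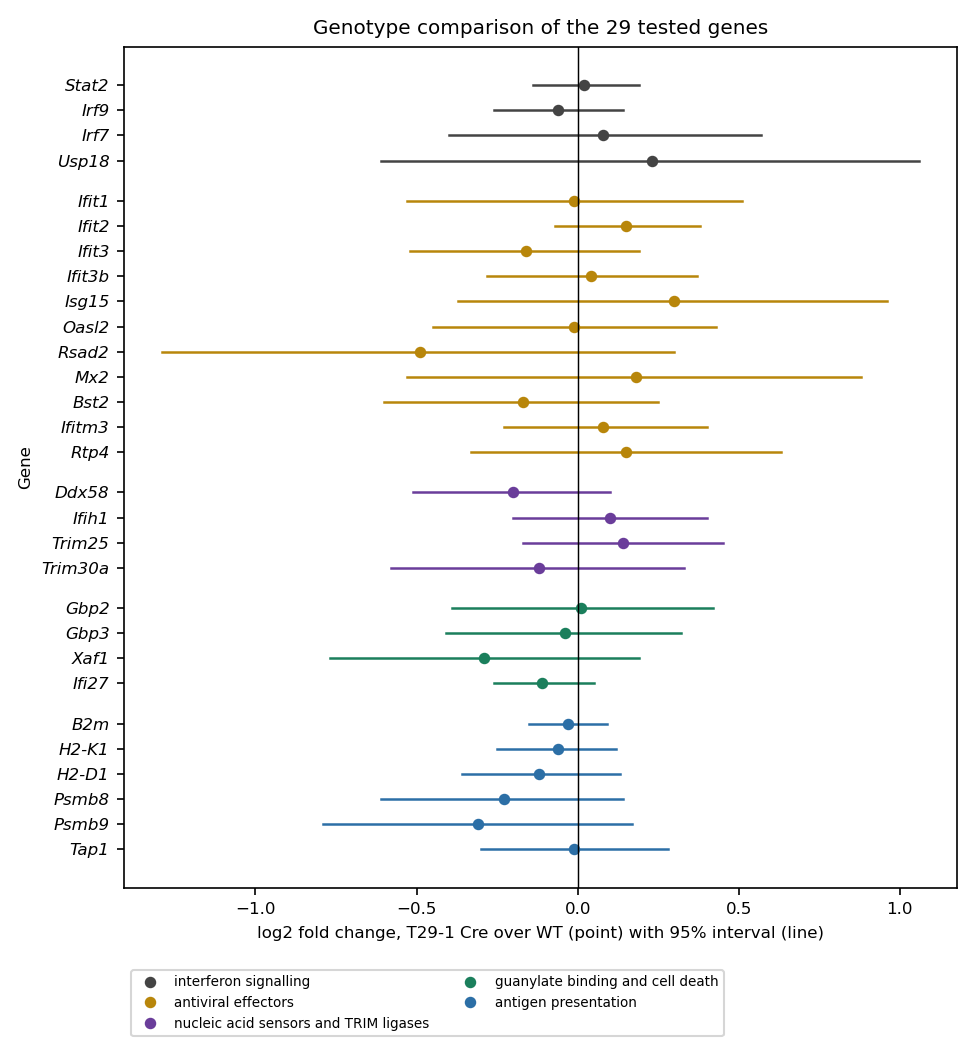
Log2 fold change of T29-1 Cre over WT for the 29 tested genes, grouped by role, with points for the edgeR estimate and lines for its 95% confidence interval. Every line crosses 0, from Rsad2 at -0.49 to Isg15 at 0.30, and the lines are shortest for the abundant genes B2m, Ifi27 and Stat2.

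Among the genes of interferon signalling, Stat2 and Irf9 had a coefficient of variation over the 8 libraries of 7.85% and 7.83%. Counting alone gives 3.92% for Stat2 and 6.5% for Irf9. Stat2 had 21.7, 26.1, 27.9 and 23.9 CPM in T29-1 Cre libraries 1 to 4, against 25.6, 23.1, 25.3 and 23.9 CPM in WT libraries 1 to 4. The WT values lay inside the range of the T29-1 Cre values, and the log2 fold change was 0.02 (SE 0.0766). Irf9 had 9.59, 9.16, 8.63 and 8.06 CPM in T29-1 Cre and 8.57, 10.2, 8.58 and 9.65 CPM in WT, with overlapping groups and a log2 fold change of -0.06 (SE 0.093). Irf9 shares 123 bases of exon with Rnf31 on the same strand. Irf7, the interferon-induced master factor of type I interferon genes, had 1.55, 0.86, 1.12 and 1.42 CPM in T29-1 Cre and 1.31, 1.33, 0.947 and 1.13 CPM in WT. Its groups overlapped, and it was both highest and lowest in T29-1 Cre libraries. Usp18 rested on 9 to 13 counts per T29-1 Cre library and 4 to 17 counts per WT library, and its log2 fold change of 0.23 had an SE of 0.387. With each library left out in turn, that value ran from -0.01 (without WT 2) to 0.62 (without WT 1).

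Among the antiviral effectors, the Ifit genes encode proteins that bind foreign RNA and block its translation. Ifit1 had 1.28, 0.731, 1.01 and 1.24 CPM in T29-1 Cre, against 1.42, 0.807, 1.08 and 1 CPM in WT. Both groups covered nearly the same range, with replicate 1 high and replicate 2 low in each, and the log2 fold change was -0.01 (SE 0.241). Ifit3 had 3.59, 2.71, 2.92 and 3.94 CPM in T29-1 Cre and 4.6, 2.98, 3.3 and 3.89 CPM in WT. WT 1 was the highest library and T29-1 Cre 2 the lowest, the groups overlapped, and the log2 fold change was -0.16 (SE 0.165). Ifit3b had 2.46, 1.98, 2.06 and 2.47 CPM in T29-1 Cre and 2.32, 1.9, 2.19 and 2.3 CPM in WT, also with overlapping groups. As Ifit3 and Ifit3b share 18.5% and 16% of their 150-base windows, reads from these stretches may be counted for either gene or for none. Ifit2 had 8.99, 8.17, 7.73 and 8.14 CPM in T29-1 Cre and 8.38, 6.74, 8.09 and 6.35 CPM in WT. Its 2 lowest libraries were WT, the groups overlapped, and its log2 fold change was 0.15 (SE 0.106). The coefficient of variation of Ifit2 over the 8 libraries was 11.1%, against 6.96% from counting alone. Those of Ifit1 (22%), Ifit3 (18.2%) and Ifit3b (9.77%) stood against 18.8%, 10.4% and 13.1% from counting alone.

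Isg15 and Rsad2 had the extreme values of the comparison, and both are low. Isg15 had 0.529, 0.301, 0.614 and 0.675 CPM in T29-1 Cre, against 0.524, 0.403, 0.326 and 0.501 CPM in WT, from 7 to 18 counts per library. T29-1 Cre held both the highest library and the lowest, and the log2 fold change of 0.30 had an SE of 0.31. Rsad2 had 0.869, 0.731, 0.542 and 0.975 CPM in T29-1 Cre, against 1.98, 1.01, 0.947 and 0.418 CPM in WT. WT 1 was the highest of the 8 libraries and WT 4 the lowest, so that the WT range enclosed all T29-1 Cre libraries, and the log2 fold change was -0.49 (SE 0.369). Rsad2 had the widest range of the tested members, at 4.75-fold between WT 1 and WT 4. With each library left out in turn its log2 fold change ran from -0.74 (without WT 4, edgeR adjusted p of 1) to -0.04 (without WT 1), so its size rests on those libraries.

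The other tested antiviral effectors also overlapped between the genotypes. Bst2 had 1.74, 1.81, 1.52 and 1.8 CPM in T29-1 Cre and 1.65, 2.62, 1.44 and 2.09 CPM in WT, which enclosed the T29-1 Cre values. Ifitm3 had 5.25, 3.14, 4.04 and 3.86 CPM in T29-1 Cre and 3.63, 4.07, 3.69 and 4.05 CPM in WT, so that here the T29-1 Cre values enclosed those of WT. Oasl2, a relative of the oligoadenylate synthetases, was at a log2 fold change of -0.01 (SE 0.206), and Rtp4, a chaperone of membrane receptors that is induced by interferon, had 0.15 (SE 0.225). Mx2, a dynamin-like GTPase gene annotated as a polymorphic pseudogene, had 7 to 17 counts per library and a log2 fold change of 0.18 (SE 0.328).

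The 5 untested members had too few counts for the filter. Oas2, a synthetase of the 2-5A molecules that activate RNase L, had 13, 8, 7 and 7 counts in T29-1 Cre and 2, 3, 4 and 1 counts in WT. All 4 T29-1 Cre libraries were above all 4 WT libraries, in counts as in CPM (0.253 to 0.491 in T29-1 Cre and 0.0418 to 0.131 in WT). With no filter on low counts, the log2 fold change of Oas2 was 1.79 with an unadjusted p of 0.00242, and an edgeR adjusted p of 0.892 over 26431 genes, so it did not pass the correction. Oas2 was singled out after its values were seen. In that fit 2 genes were called (0.00757%), 796 had an unadjusted p under 0.05 (3.01%), and 441 genes (1.67%) had no overlap between T29-1 Cre and WT libraries, so Oas2 is 1 of many such genes and 1 of 34 members. Oas1a, which lies near Oas2, had 4, 0, 9 and 12 counts in T29-1 Cre and 2, 3, 4 and 3 counts in WT. The groups of Oas1a overlapped, and 32.4% of its 150-base windows are shared with Oas1g. Mx1, which in C57BL/6 mice is a defective allele, had 3, 0, 2 and 0 counts in T29-1 Cre and 0, 7, 2 and 1 counts in WT. Zbp1 had 3, 0, 0 and 0 counts in T29-1 Cre and 3, 1, 1 and 1 counts in WT, and Ifi27l2a 7, 2, 1 and 5 counts in T29-1 Cre and 5, 3, 5 and 1 counts in WT. These values of Mx1, Zbp1 and Ifi27l2a are at or near the floor and their groups overlapped.

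The sensors of viral RNA overlapped between the genotypes too. Ddx58 (RIG-I, which detects uncapped RNA ends) had 4.12, 4.09, 3.9 and 3.67 CPM in T29-1 Cre, against 5.05, 5.53, 3.92 and 3.68 CPM in WT. WT 1 and WT 2 were above the others, which lay together in both genotypes, and the log2 fold change was -0.20 (SE 0.141). Ifih1 (MDA5, a sensor of long double-stranded RNA) differed by a log2 fold change of 0.10 (SE 0.139). Trim25, the ubiquitin ligase that activates RIG-I, had 7.59, 5.81, 6.64 and 6.22 CPM in T29-1 Cre and 7.78, 5.97, 4.93 and 5.18 CPM in WT. Library 1 of each genotype was highest, the groups overlapped, and the log2 fold change was 0.14 (SE 0.143). It ran from 0.05 without WT 3 to 0.30 without WT 1 (edgeR adjusted p of 0.981). Trim30a, a mouse TRIM protein that restrains innate signalling, was at a log2 fold change of -0.12 (SE 0.212), and 3.24% of its windows are shared with Trim30d.

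The guanylate-binding proteins attack the membranes of intracellular pathogens. Gbp2 had 1.81, 1.59, 1.66 and 1.76 CPM in T29-1 Cre, against 2.24, 1.77, 1.34 and 1.42 CPM in WT, which enclosed the T29-1 Cre values. Gbp3 had 3.14, 2.24, 2.56 and 2.02 CPM in T29-1 Cre and 3.14, 2.3, 2.48 and 2.34 CPM in WT, with library 1 highest in each genotype. Xaf1, a partner of the apoptosis inhibitor XIAP, had 2.27, 1.76, 1.62 and 1.99 CPM in T29-1 Cre, against 3.44, 2.46, 1.8 and 1.67 CPM in WT. WT 1 stood well above the other libraries, which overlapped, and the log2 fold change was -0.29 (SE 0.224). Ifi27 had 22.6, 23.5, 22.7 and 25.5 CPM in T29-1 Cre and 26.2, 23.5, 23.7 and 28.2 CPM in WT. Its 2 highest libraries were WT, the groups overlapped, and its unadjusted edgeR p of 0.165 (log2 fold change -0.11, SE 0.0717) was the smallest of the tested members.

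The 6 genes of antigen presentation all had values of the log2 fold change below 0, with a median of -0.09, and none passed the test. Of all tested genes, 50.3% had a value below 0. The shared sign did not hold with each library left out. Tap1, at -0.01 over all libraries, was at 0.08 without WT 3, and H2-K1 was at 0.00 without WT 1. B2m was the steadiest member of all, at 33.7, 34.1, 35.5 and 38.1 CPM in T29-1 Cre, against 36.8, 34.6, 35.1 and 37.6 CPM in WT. Its coefficient of variation over the 8 libraries was 4.51%, the groups overlapped, and the log2 fold change was -0.03 (SE 0.0563). H2-D1 had 30.8, 21.3, 24.8 and 23.5 CPM in T29-1 Cre and 31.4, 26.3, 22.6 and 28.8 CPM in WT. Library 1 of each genotype was highest, the groups overlapped, and the log2 fold change was -0.12 (SE 0.113). It ran from -0.23 without T29-1 Cre 1 (edgeR adjusted p of 1) to -0.04 without WT 1. H2-K1 had 18.7, 17.9, 18.6 and 15.2 CPM in T29-1 Cre and 21, 17.7, 16.8 and 18.2 CPM in WT, with overlapping groups and a log2 fold change of -0.06 (SE 0.0859).

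Psmb8 and Psmb9 are immunoproteasome subunits, and Tap1 is a chain of the peptide transporter that loads class I molecules. Psmb8 had 2.42, 1.72, 1.99 and 1.61 CPM in T29-1 Cre, against 2.73, 2.1, 2.25 and 2.01 CPM in WT, with a log2 fold change of -0.23 (SE 0.174). Its 2 lowest libraries were T29-1 Cre, and its highest was WT 1. Psmb8 shares 498 bases of exon with Gm20496 on the opposite strand. Psmb9 had 0.642, 0.602, 0.758 and 0.787 CPM in T29-1 Cre, against 0.898, 0.968, 0.718 and 0.919 CPM in WT. Only WT 3 lay among the T29-1 Cre libraries, the log2 fold change was -0.31 (SE 0.223), and the exact two-sided permutation test over 70 assignments gave p = 0.0857, the smallest among the 29 members, where the smallest possible value is 0.0286. This rests on 14 to 24 counts per library, and Psmb9 shares 212 bases of exon with Tap1 on the opposite strand, where reads of these genes cannot be told apart unless the counting used strand. Tap1 had 3.14, 3.27, 3.39 and 3.15 CPM in T29-1 Cre and 3.29, 2.62, 3.82 and 3.26 CPM in WT, which enclosed the T29-1 Cre values, with a log2 fold change of -0.01 (SE 0.136).

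Other genes of the pathway, in 7 lists, gave the same count of calls. Of 143 genes listed, 99 were tested and 0 were called by edgeR, against 1 of all 15996 tested genes (0.00625%). An unadjusted p under 0.05 was reached by 1 of the 99, against 388 of the 15996 (2.43%). The gene among the 99 was Calr, the chaperone calreticulin of the class I loading complex. Calr was at 322 ± 19.7 CPM in T29-1 Cre and 351 ± 20.6 CPM in WT (SD, n = 4 each). Its log2 fold change was -0.13 (SE 0.0569, edgeR adjusted p = 0.998). Among receptors and signalling genes, Ifngr1, a chain of the interferon gamma receptor, was at a log2 fold change of 0.18 (SE 0.0831), and Socs3, a feedback inhibitor, had 0.41 (SE 0.23). In the sensing pathway, the adaptor Mavs had 0.18 (SE 0.106) and Dhx58, a relative of RIG-I, had -0.40 (SE 0.237). Of the other interferon-stimulated genes, Ube2l6, the conjugating enzyme for ISG15, had -0.28 (SE 0.132) and the immunity-related GTPase Irgm1 had 0.19 (SE 0.101). In antigen presentation, Tap2, the partner of Tap1, had -0.15 (SE 0.0933), and the class II genes H2-Eb1 and Cd74 had -0.27 (SE 0.316) and 0.23 (SE 0.41). The constitutive proteasome subunits Psmb6 and Psmb5, which Psmb9 and Psmb8 replace, had -0.10 (SE 0.0683) and -0.08 (SE 0.0642). All of these had an edgeR adjusted p of 0.998.

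How far the members varied between libraries was read from an index, the chi-square of the counts over the 8 libraries per degree of freedom, which is near 1 where counting noise alone is present. The index was over 2.01, the 95% point of counting noise, for 13 of 29 members (44.8%), against 62.8% of all tested genes. Its median was 1.74 for the members and 2.66 for all tested genes, and it grows with the count of a gene, so the low members had less room to exceed it. H2-D1 had the highest index, at 14.4, followed by Rsad2 at 6.26, Trim25 at 4.61 and Xaf1 at 4.6. B2m, with more counts than any other member, had an index of 1.85, below that point. Ifit3b at 0.537 and Psmb9 at 0.56 varied no more than counting noise gives.

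Members moved together between libraries more often than in opposite directions. Over the 406 pairs of tested members, Pearson r of log2 CPM over the 8 libraries had a median of 0.17, with quartiles of -0.11 and 0.46. Over all pairs of tested genes the median was 0.00, with quartiles of -0.33 and 0.33. Of the member pairs, 20.9% had r over 0.5 and 5.17% had r under -0.5, against 14.7% and 14.6% of all pairs. All pairs share the same libraries and their scaling, and the member pairs share genes, so these are descriptions with no test. The median over the member pairs had a jackknife SE over the libraries of 0.105, and without WT 1 it was 0.10. WT 4 was highest for 25.5% and lowest for 27.2% of all tested genes, against 3.45% and 20.7% of the members. How far this library shapes the values over all pairs was not tested.

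Within the roles, the median r was 0.32 among the guanylate binding and cell death genes (6 pairs), 0.24 among the sensors and TRIM ligases (6 pairs), 0.17 among the antiviral effectors (55 pairs), 0.13 among the antigen presentation genes (15 pairs) and -0.15 among the signalling genes (6 pairs). Differences between roles were not tested, and the quartiles overlap, for example 0.04 to 0.55 in the guanylate binding and cell death genes and -0.11 to 0.51 in the antigen presentation genes. Ifit1 had the highest median r with the other members, at 0.44, followed by Trim25, Gbp2 and Gbp3 at 0.42 and H2-D1 at 0.40. Irf9, Stat2 and Bst2 had medians of -0.15, -0.12 and -0.11. As a description of the extremes, chosen for their values, r was 0.96 for Ifit2 with Rtp4, 0.90 for Gbp3 with Psmb8 and for Trim25 with Gbp2, 0.89 for Rsad2 with Xaf1, and -0.89 for Bst2 with Tap1.

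**Figure D3:**
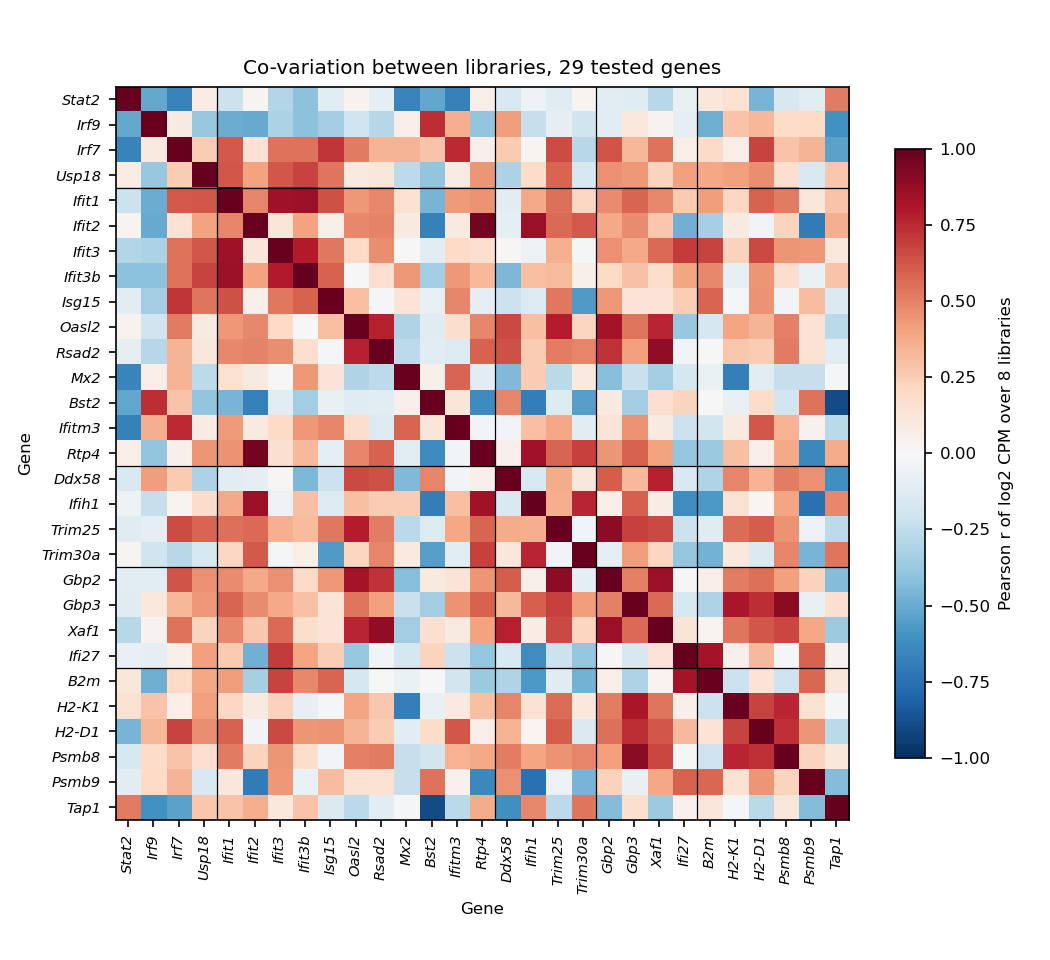
Pearson r of log2 CPM over the 8 libraries for each pair of the 29 tested genes, ordered and divided by role, in red for positive and blue for negative values. Red squares prevail (median r 0.17 over the 406 pairs), with blue bands at Stat2, Irf9, Mx2 and Bst2.

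Gene pairs with a textbook relation were tested singly, 11 in all, each by an exact two-sided permutation test over the 40320 pairings of the 8 libraries with adjustment over the 11. None passed an adjusted p of 0.05. Ifit1 and Ifit3 came closest, with r = 0.85 (permutation p = 0.00903, adjusted p = 0.0993) and Spearman rho = 0.76 (permutation p = 0.0368, adjusted p = 0.168). Without T29-1 Cre 2 and WT 1, the libraries farthest from the median of Ifit1, r was 0.63 (permutation p = 0.161). Ifit3 and Ifit3b had r = 0.80 (permutation p = 0.0222, adjusted p = 0.122) and rho = 0.81 (permutation p = 0.0218, adjusted p = 0.168), and r = 0.87 without WT 1 and T29-1 Cre 2, while part of their sequence is shared, as given above.

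H2-K1 and H2-D1, the 2 class I heavy chains, had r = 0.67 (permutation p = 0.0579, adjusted p = 0.212) and rho = 0.74 (permutation p = 0.0458, adjusted p = 0.168). Their r was 0.61 without T29-1 Cre 4 and WT 1. B2m, which pairs with both heavy chains in the protein complex, had r = -0.22 with H2-K1 (permutation p = 0.616), and r = 0.58 without T29-1 Cre 4 and WT 4 (permutation p = 0.219). Stat2 and Irf9, partners in one transcription factor complex, had r = -0.51 (permutation p = 0.193, adjusted p = 0.458). Psmb9 and Tap1, which lie head to head, had r = -0.43 (permutation p = 0.29), and Isg15 and Rsad2 had r = -0.02 (permutation p = 0.969). The remaining 4 pairs, Irf7 with Usp18, Ddx58 with Ifih1, Gbp2 with Gbp3 and Psmb8 with Psmb9, had r of 0.26, -0.15, 0.50 and 0.22. These values moved with single libraries: left out in turn, r of Irf7 with Usp18 ran from 0.06 (without WT 3) to 0.64 (without WT 2), and that of Gbp2 with Gbp3 from 0.13 (without WT 1) to 0.68 (without T29-1 Cre 4). For Psmb8 with Psmb9 it ran from -0.05 (without T29-1 Cre 2) to 0.46 (without T29-1 Cre 1), and for Ddx58 with Ifih1 from -0.44 (without WT 4) to 0.31 (without WT 2). Without WT 2 and WT 1, in which Ddx58 was high, its r with Ifih1 was 0.81 (permutation p = 0.0417, not adjusted), so the value over all libraries rests on those libraries. With 8 libraries the interval of any single r is wide, and a pair that missed the threshold is not shown to be unrelated.

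Library WT 1 had the highest values of the set. As deviations of log2 CPM from the mean of the 8 libraries, the medians over the 29 members were 0.13, -0.09, -0.05 and 0.01 in T29-1 Cre libraries 1 to 4 and 0.19, -0.04, -0.06 and -0.04 in WT libraries 1 to 4. In each genotype, library 1 was thus high and the other libraries were near or below 0. In T29-1 Cre 1, 22 of 29 members (75.9%) were above their mean, against 51.7% of all tested genes. In WT 1, 25 of 29 members (86.2%) were above their mean, against 52.9% of all tested genes. Of the 29 members, 12 (41.4%) were at their highest in WT 1, where 12.6% of all tested genes were at their highest. T29-1 Cre 2 was lowest for 7 members (24.1%), against 11.1% of all tested genes, and WT 4, the library that stood apart, for 6 (20.7%), against 27.2% of all tested genes.

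By role, all 5 medians were above 0 in T29-1 Cre 1 and in WT 1, and differences between roles were not tested. The guanylate binding and cell death genes had a median deviation of 0.12 in T29-1 Cre 1 and 0.36 in WT 1, and the antigen presentation genes 0.01 in T29-1 Cre 1 and 0.21 in WT 1. The antiviral effectors were at 0.15 in T29-1 Cre 1, -0.22 in T29-1 Cre 2, 0.16 in T29-1 Cre 4 and 0.14 in WT 1. The sensors and TRIM ligases were at 0.19 in T29-1 Cre 1 and 0.19 in WT 1, and the signalling genes at 0.20 in T29-1 Cre 1 and 0.09 in WT 1. Single genes went against the set, such as Mx2, which was at -0.62 in WT 1, its lowest library.

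**Figure D4:**
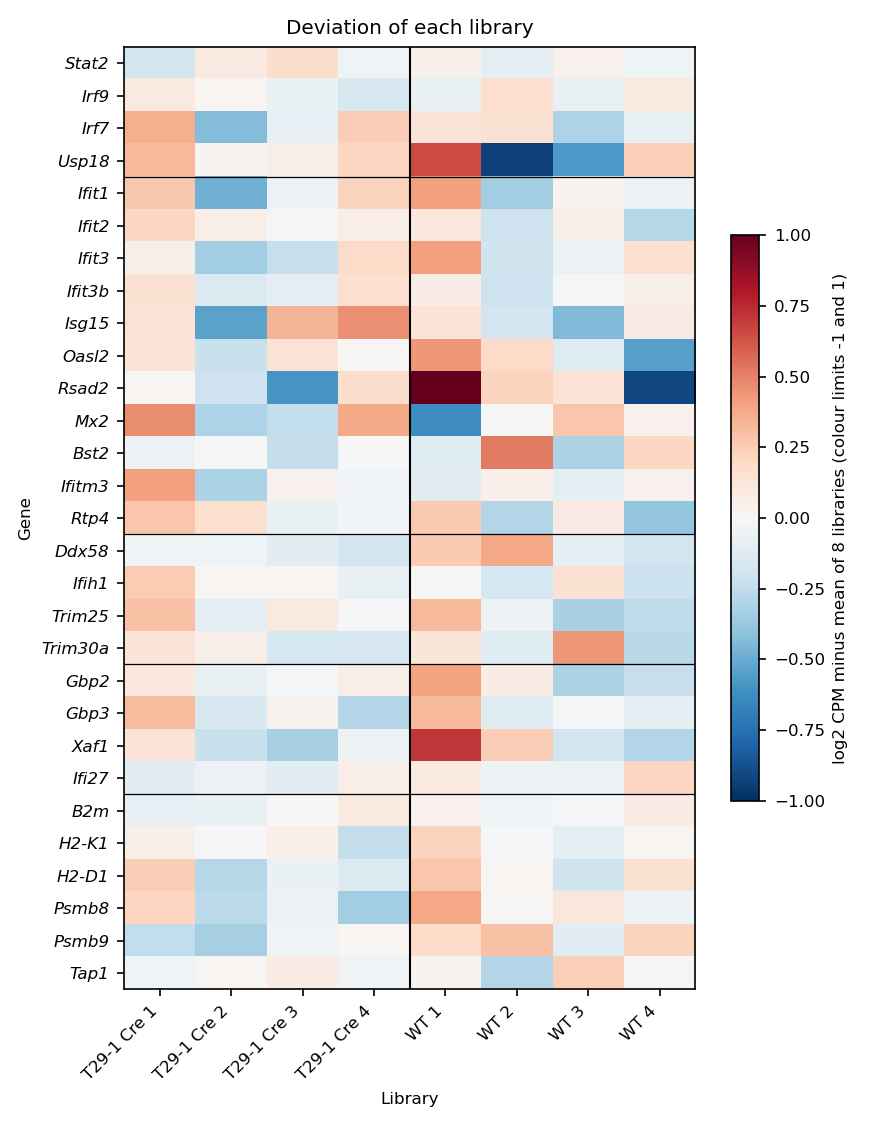
Deviation of log2 CPM from the mean of the 8 libraries for each of the 29 tested genes (rows, divided by role) in each library (columns), in red for above and blue for below the mean, with colour limits at -1 and 1. The column of T29-1 Cre 1 is above 0 for 22 of 29 genes (51.7% of all tested genes). That of WT 1 is above 0 for 25 of 29 (52.9% of all tested genes). Rsad2 has both the darkest red (WT 1) and a dark blue (-0.912, WT 4) within WT.

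Markers of other cell types varied between the same libraries, and only some lists were high where the members were. In T29-1 Cre 1 the median deviation was 0.63 for leptomeningeal fibroblasts, 0.37 for perivascular macrophages, 0.27 for mural cells and 0.25 for endothelial cells. It was 0.19 for red blood cells, 0.07 for choroid plexus and 0.02 for microglia, but -0.08 for oligodendrocytes and -0.49 for ependymal cells. In WT 1 it was 0.81 for ependymal cell markers, 0.70 for red blood cell markers, 0.22 for oligodendrocytes and 0.21 for perivascular macrophages. There it was 0.10 for endothelial cells, 0.08 for mural cells, 0.05 for leptomeningeal fibroblasts and 0.03 for microglia, but -0.92 for choroid plexus. Perivascular macrophage markers were also high in WT 2 (0.34) and WT 4 (0.41), where the members were at -0.04 in each. The part of these cell types in the levels of the members was not tested. Microglial markers, all 10 of which were tested, summed to 351 to 379 CPM in T29-1 Cre and 367 to 384 CPM in WT, a narrow range. Perivascular macrophage markers (4 of 5 tested) summed to 2.88 to 5.85 CPM in T29-1 Cre and 3.75 to 4.96 CPM in WT. Red blood cell markers (5 of 5 tested) summed to 29.9 to 47.6 CPM in T29-1 Cre and 34.5 to 62 CPM in WT, and endothelial markers (8 of 8 tested) to 141 to 199 CPM in T29-1 Cre and 145 to 177 CPM in WT. Of these lists, none had a marker at 0 counts in all libraries and none had a called gene.

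**Figure D5:**
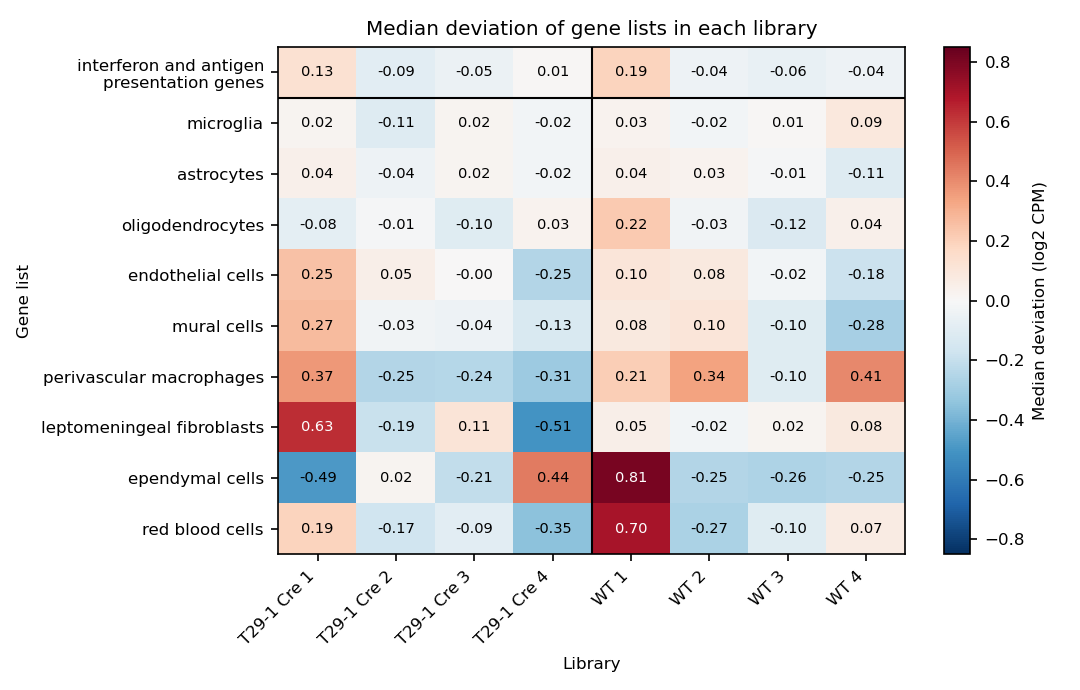
Median deviation of log2 CPM from the mean of the 8 libraries for the 29 tested members (top row) and for 9 lists of cell type markers (rows) in each library (columns), printed in each cell. The top row is highest in T29-1 Cre 1 (0.13) and WT 1 (0.19), where the microglia row has 0.02 in T29-1 Cre 1 and 0.03 in WT 1. The perivascular macrophage row has 0.37 in T29-1 Cre 1 and 0.21 in WT 1, and also 0.34 in WT 2 and 0.41 in WT 4.

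The 10 tested genes outside the set whose log2 CPM was most like the median deviation of the members over the 8 libraries were Tmem192, Pex11g, Zfp775, Fam57a, Anxa2, Ccdc40, A530058N18Rik.1, Hist1h2ac, Nkd1 and Bckdhb, with r from 0.96 to 0.91. None of them is in a pathway or marker list. They head a ranking of all tested genes outside the set over 8 libraries and are named as a description.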

How the data were processed

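From 500 ng of total RNA of the hippocampus, poly(A) RNA was selected, made into directional libraries and sequenced as paired reads of 150 bases, per the labels' protocols. Reads were processed with STAR 2.6.1d, featureCounts and edgeR 3.11 on GRCm38, per the submitters' processing notes. For the counting, the annotation, strand setting and treatment of multi-mapping reads were not given in the sources used here. Whole-number counts per gene name, not normalized, were deposited by the authors. Their own table of the comparison was not used here.

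Counts were analysed in R 4.3.3 with edgeR 4.0.16. filterByExpr at its defaults (minimum count 10, minimum total 15) kept 15996 genes, and TMM scaled the libraries. The quasi-likelihood test compared T29-1 Cre with WT with no covariate, with Benjamini-Hochberg adjustment over all tested genes and a threshold of 0.05. CPM uses TMM-scaled sizes, and log2 CPM a prior count of 2. Single members were also compared by an exact permutation test over 70 assignments. Every pair of libraries of 1 genotype differed beyond counting noise (chi-square 3.32 to 19.2 per degree of freedom). Gene positions, exon lengths and overlaps come from GENCODE on GRCm38, and promoter windows from RefSeq. Shared windows are runs of 150 bases found in the transcripts of more than 1 gene. The scripts were tested on simulated data.

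All 34 members are named. Of each of the 7 pathway lists, called genes or else the 2 with the smallest p are named, together with the 10 genes most like the members' median. The members, lists, pairs and rules were chosen with earlier results of these data known. Of 12 gene pairs fixed, 11 could be tested. Alternatives were DESeq2 1.42.0, limma-voom (limma 3.58.1), other scalings and filters, a prior count of 0.5, deviations from the genotype mean, a replicate block and each library left out in turn.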

Additional observations from a re-analysis of the deposited data

Results flagged for a closer look

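The median deviation of the 29 tested members in library WT 1 was 0.19 on the log2 CPM scale, far above the other WT libraries at -0.06 to -0.04. Its gap to the nearest of them was 0.921 of the range of the 4 libraries, past the 95% point of Dixon's test for 4 samples. It was the 1 such value found among 60 groups screened. Chance gives about 1 in 20, so 1 flag among 60 is no more than chance gives. T29-1 Cre 1, which is not part of this WT group, was at 0.13. The values of the cell type markers in this library stand in the report, and the cause was not tested.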

How the results depend on the processing

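No member was called in any of the alternatives run. The count of called genes, 1 in the fit as reported, was 2 with no filter and 2 with the replicate block, where St6gal2 and Ttr passed; neither is a member. Replicate numbers did not pair the libraries (correlations of the same-numbered deviations -0.0732, 0.0535, 0.0179 and -0.0345), and with the block 0 members were called and their median log2 fold change was -0.02. Over the libraries left out in turn that median ran from -0.06 to 0.00, the median pairwise r from 0.10 to 0.22, and the count of called genes stayed at 1. Of the 11 pairs, 2 passed with deviations from the genotype mean, Ifit1 with Ifit3 (r 0.89) and Ifit3 with Ifit3b (r 0.91), each with a permutation adjusted p of 0.0226, while none passed in the other settings; permuting such deviations is not strictly exact. Of 458 values of single members, 31 in 14 members had the other sign, all with a log2 fold change of at most 0.23 in size as reported, and none was called. An unadjusted edgeR p under 0.05 was reached by Oas2 with no filter, as by 796 of 26431 genes (3.01%). With a library left out, it was reached by H2-D1 without T29-1 Cre 1 (0.0437), Trim25 without WT 1 (0.034) and Rsad2 without WT 4 (0.0289). Each was 1 of 29 members in its fit. In the same order, 365 of 16135, 412 of 16114 and 463 of 16139 tested genes reached it in these fits. Depth limits the low members: 8 of 34 had over 100 counts in every library, and 3 had a library at 0.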
